A study of Mus musculus with 22 samples.

Results

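The 7 genes described here are the mouse PDGF (platelet-derived growth factor) ligand genes Pdgfa, Pdgfb, Pdgfc and Pdgfd, the receptor genes Pdgfra and Pdgfrb, and the receptor-like gene Pdgfrl. They were chosen by name and make up 7 of the 22502 gene symbols in the table. All 7 were found, each with 1 entry, and all were tested in every comparison, because each exceeded 1 FPKM (fragments of a gene divided by its transcript length and by all mapped fragments) in at least 1 condition of each pair. The measurements are RNA-seq of primary MEPM (mouse embryonic palatal mesenchyme) cells, which were taken from palatal shelves of E13.5 embryos and grown to passage 2 in culture. According to the study's methods, each set of replicates came from separate litters.

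All cells were starved overnight in 0.1% serum before the ligand was added, and poly(A) RNA was sequenced. The 22 samples fall into 10 conditions. PDGFA (30 ng/mL) alone for 4 hr and FGF1 (50 ng/mL, with 1 ug/mL heparin) alone for 4 hr had 3 samples each. Each ligand was also given for 1 hr or for 4 hr to cells with PD325901 (PD, 1 uM), an inhibitor of the kinase MEK, or LY294002 (LY, 10 uM), an inhibitor of PI3K (phosphoinositide 3-kinase), with 2 samples each. Every condition contained a ligand, so no value below describes cells without one. No condition with ligand alone for 1 hr was analysed here, and no inhibitor was given without a ligand.

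PDGFs are secreted dimers that join pairs of receptor tyrosine kinases, which then phosphorylate each other and recruit PI3K, SRC kinases, phospholipase C-gamma and the GRB2 and SOS adaptors of the RAS and ERK pathway. PDGF-A binds PDGFR-alpha, PDGF-B binds both receptors, PDGF-C acts mainly through PDGFR-alpha and PDGF-D mainly through PDGFR-beta. PDGF-C and PDGF-D are secreted with a CUB domain that proteases remove before they can bind. In the embryonic face, PDGFR-alpha is the receptor of the neural crest mesenchyme, and loss of Pdgfra in mouse neural crest leads to facial clefts. PDGFR-beta is best known in pericytes and vascular smooth muscle, and is also expressed in mesenchyme. Pdgfrl encodes a secreted protein that resembles the extracellular part of the receptors and has no kinase domain.

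On the mm10 build, Pdgfra lies at chr5:75151322-75198206 and Pdgfa at chr5:138976014-139000792. Pdgfb lies at chr15:79995865-80024614, Pdgfc at chr3:81036416-81214040 and Pdgfd at chr9:6168363-6534284. Pdgfrl lies at chr8:40926233-40990782. Promoter windows of RefSeq (build GRCm38.p6) were at hand for Pdgfra, Pdgfa, Pdgfc and Pdgfd. They are shown for Pdgfra, the receptor that moved most between conditions, and for start sites of Pdgfa. Pdgfa encodes the ligand that was added to the cells and shares its upstream end with an antisense gene. The windows hold bases before an annotated start, read 5′ to 3′ on the gene's strand. Capitals mark the letters GGGCGG, the core of the SP1 motif. Inner and outer tell apart only the Pdgfa starts at hand. All windows shown lie inside the gene spans given above, so bases before the upstream end of either span are not shown.

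Pdgfra, chr5:75152001-75152250, plus strand: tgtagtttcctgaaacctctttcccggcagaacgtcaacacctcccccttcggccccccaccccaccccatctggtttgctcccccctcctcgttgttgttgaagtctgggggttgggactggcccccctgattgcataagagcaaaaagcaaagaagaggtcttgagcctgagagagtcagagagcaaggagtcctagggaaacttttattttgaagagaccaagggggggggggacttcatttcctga
Pdgfa, inner start site, chr5:138994282-138994531, minus strand: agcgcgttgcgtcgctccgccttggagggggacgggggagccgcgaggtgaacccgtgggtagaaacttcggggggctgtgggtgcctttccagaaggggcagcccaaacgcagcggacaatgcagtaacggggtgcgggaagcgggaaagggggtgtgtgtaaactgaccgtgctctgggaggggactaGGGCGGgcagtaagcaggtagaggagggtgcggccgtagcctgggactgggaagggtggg
Pdgfa, outer start site without annotated exon, chr5:138995038-138995194, minus strand: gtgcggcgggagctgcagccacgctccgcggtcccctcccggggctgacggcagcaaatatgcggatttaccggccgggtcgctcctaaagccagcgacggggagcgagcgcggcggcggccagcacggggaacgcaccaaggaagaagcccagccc

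The Pdgfra window, which precedes an annotated start inside the gene span, is 250 bases long with 54.4% G or C. It holds no GGGCGG on either strand. The inner Pdgfa window holds 1 match in 250 bases with 66.4% G or C, and the outer stretch of 157 bases holds none. The whole outer window of 250 bases (72.4% G or C) holds 2 matches, both in its part nearest the start, which overlaps an annotated exon and is not shown. Of 32851 mouse windows of 250 bases, 32.7% hold GGGCGG on either strand. Neither GCGTGGGCG nor GCGGGGGCG (the motif of EGR factors), TGAGTCA (AP-1), CCGGAAGT (ETS) nor GTAAACA (FOXO) was found on either strand in the windows of Pdgfra, Pdgfa, Pdgfc or Pdgfd. These 4 motifs are held by 3.06%, 4.46%, 2.88% and 3.17% of the windows of all genes. The motifs were chosen after the levels had been seen.

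The outer Pdgfa stretch also overlaps the antisense gene 6330403L08Rik on the plus strand (GENCODE M21, chr5:138995056-139000577). Of the 3131 words of 31 bases in the transcripts of Pdgfa, 23.3% occur in another gene on either strand, nearly all of them in 6330403L08Rik. The share was 5.57% for Pdgfra (mostly the antisense gene Gm42802), 2.54% for Pdgfc (mostly the antisense gene Gm16000), 2.01% for Pdgfrl, and 0.0% for Pdgfrb, Pdgfb and Pdgfd. The sources used here do not say that reads were counted by strand. Reads of Pdgfa, Pdgfra and Pdgfc therefore cannot be told apart from those of their antisense partners in the shared stretches.

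Each condition has 1 FPKM for each gene, pooled over its samples. The spread between replicates cannot be calculated from it and no test was possible. The study's methods state sequencing depth only as a range over all samples, and without counts per gene it gives no interval for a single value. Higher and lower are used of 2 conditions that differed by at least 1.5-fold, among entries above 1 FPKM in either. The share of all entries past the same limit is given beside each count of a comparison or of a set of comparisons. Ratios are of pooled FPKM with no pseudocount, and the median log2 ratio of all entries lay between -0.03 and 0.04 in the 17 comparisons. Many of the comparisons share conditions, so their ratios are not independent of each other. In a bulk measurement, fewer cells of a type and less RNA per cell cannot be told apart.

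The culture had most of the transcripts listed here as markers of palatal mesenchyme. Of 10 markers, 9 exceeded 1 FPKM, with Vim (vimentin) highest at 1600 to 2617 FPKM. Only the palate transcription factor gene Tbx22 was near 0 (at most 0.166 FPKM). Osr1 was 24.1 to 108 FPKM, and Osr2 was lower at 2.55 to 6.51 FPKM. The 8 endothelial markers summed to 2.09 to 4.91 FPKM, with Egfl7 highest at 2.87, Pecam1 and Cdh5 at most at 0.105 and 0.0468, and Cldn5 listed at 0 throughout. The 8 epithelial markers summed to 1.14 to 10.2 FPKM, mostly from Krt18, which reached 8.59 in 4 hr FGF, and the 5 blood markers in the table summed to at most 1.84. Of 9 pericyte and smooth muscle markers, Acta2 (smooth muscle actin, also made by cultured fibroblasts) reached 1516 to 3163 FPKM, and Mcam, Notch3 and Myh11 were also above 10 in every condition. The rest of that list was low: Rgs5 reached at most 1.71 FPKM, Abcc9 0.142, Kcnj8 0.0901, Des 3.47 and Higd1b 0.185. The part of any other cell type in the levels of Pdgfrb was not tested.

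Pdgfrb mRNA was the receptor transcript present at the higher level in all 10 conditions, and Pdgfa, Pdgfc and Pdgfd mRNAs were above 25 FPKM in all of them. By median, the order was Pdgfrb (61.9 FPKM), Pdgfc (51.8), Pdgfa (46.7), Pdgfd (33.7), Pdgfrl (29.0), Pdgfra (5.28) and Pdgfb (3.23). Pdgfrl stood above the next gene by 1.75-fold to 6.43-fold in each condition. The upper neighbours were close. Pdgfrb came first in 7 conditions and Pdgfc in the other 3, and the top pair differed by as little as 1.01-fold (1 hr FGF + PD). Without a spread between replicates, the order among Pdgfrb, Pdgfc and Pdgfa, and that between Pdgfra and Pdgfb, cannot be called a difference.

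**Figure D1:**
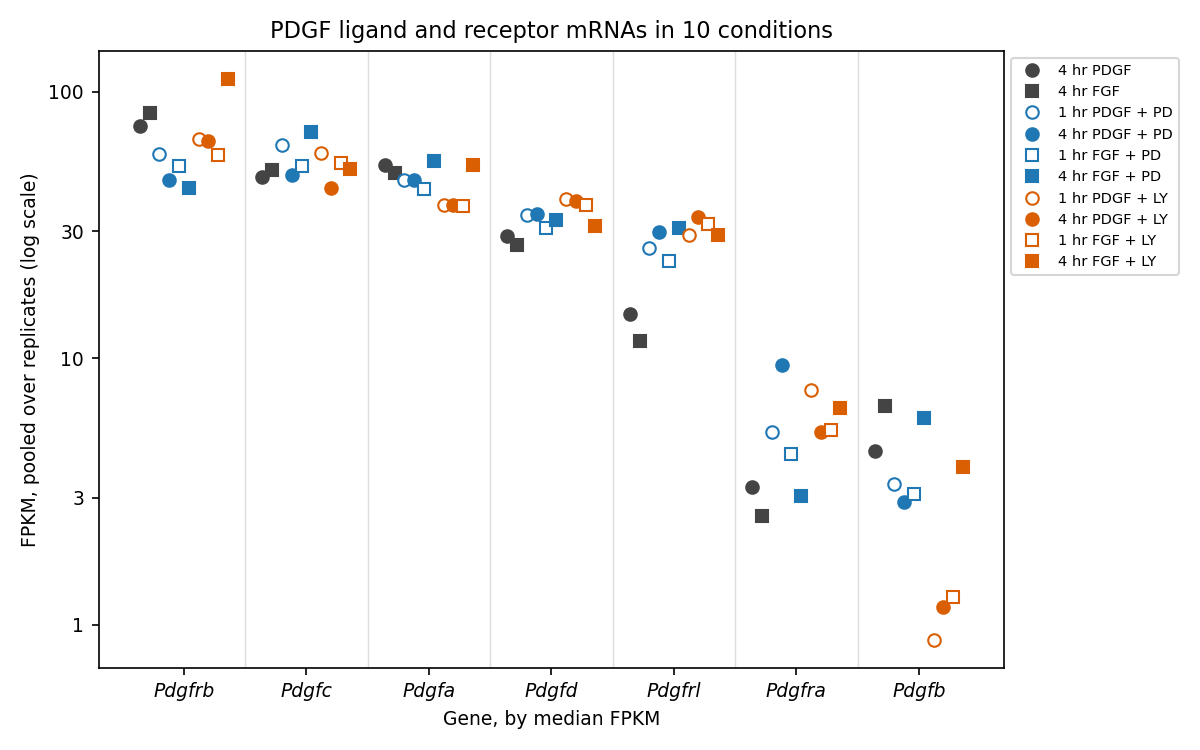
Pooled FPKM (log axis) of the 7 genes, in order of median level, with 1 point per condition. Circles are PDGF and squares FGF, filled points 4 hr and open points 1 hr, grey ligand alone, blue PD and orange LY. Pdgfra and Pdgfb lie below 10 FPKM in every condition, and both grey points of Pdgfrl lie below all its coloured points.

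The genes differed in how widely they ranged. Pdgfb ranged 7.56-fold between its lowest and highest condition, and 3.58% of 12156 entries ranged more widely. Pdgfra ranged 3.69-fold (12.1% of entries wider), Pdgfrl 2.92-fold (18.9%) and Pdgfrb 2.58-fold (24.2%). Pdgfc (1.62-fold), Pdgfd (1.49-fold) and Pdgfa (1.47-fold) ranged less than the median entry, at 1.84-fold. Of the 119 ratios of 7 genes in 17 comparisons, 27 reached 1.5-fold, beside 5.41% to 24.4% of entries in single comparisons. Shares of entries were not calculated for the counts of single genes. Pdgfb had 11 of them (8 higher, 3 lower), Pdgfra 7 (5 higher, 2 lower), Pdgfrb 5 (2 higher, 3 lower) and Pdgfrl 4 (all higher). Pdgfa, Pdgfc and Pdgfd had none.

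**Figure D2:**
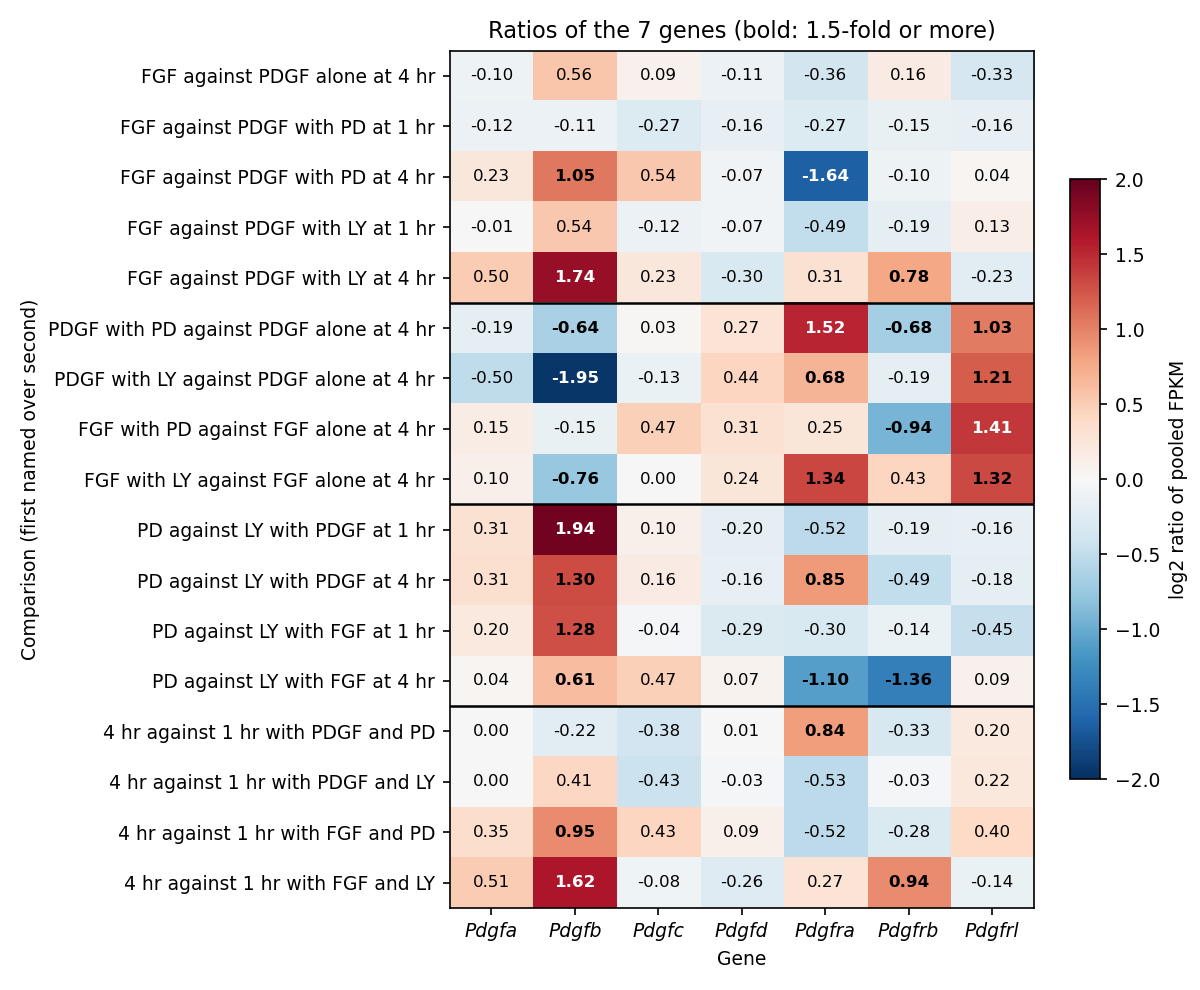
log2 ratios of pooled FPKM for the 7 genes (columns) in the 17 comparisons (rows), with the condition named first over the second and lines between the 4 kinds of comparison. Red is higher, blue is lower, and bold values reach 1.5-fold. The bold values are in the columns of Pdgfb, Pdgfra, Pdgfrb and Pdgfrl.

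Among the ligands, Pdgfa encodes the chain that was added to the PDGF conditions. Its level was 53.3 FPKM in 4 hr PDGF and 49.7 in 4 hr FGF. The PD conditions gave 46.7 and 46.8 FPKM in 1 hr and 4 hr PDGF, and 43.0 and 54.9 in 1 hr and 4 hr FGF. The LY conditions gave 37.6 FPKM in both PDGF conditions, 37.4 in 1 hr FGF and 53.3 in 4 hr FGF. The lowest 3 values of Pdgfa were thus LY conditions, and the fourth LY condition was close to the highest.

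Pdgfb encodes the ligand chain that binds both receptors, and it was the least abundant ligand mRNA. Its level was 4.50 FPKM in 4 hr PDGF and 6.64 in 4 hr FGF. Under PD it was 3.36 and 2.89 FPKM in 1 hr and 4 hr PDGF, and 3.10 and 5.98 in 1 hr and 4 hr FGF. Under LY it was 0.878 and 1.17 FPKM in 1 hr and 4 hr PDGF, and 1.28 and 3.91 in 1 hr and 4 hr FGF. At matched ligand and time, LY gave the lower value than PD in all 4 pairs, although the LY range (0.878 to 3.91) and the PD range (2.89 to 5.98) overlapped. Pdgfb made up 0.641% to 4.96% of the summed ligand FPKM, and Pdgfa exceeded it 7.48-fold to 42.9-fold.

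Pdgfc, whose protein is a ligand of PDGFR-alpha with a role in palate formation in mouse, was 47.9 FPKM in 4 hr PDGF and 51.1 in 4 hr FGF. Cells with PD had 63.3 and 48.8 FPKM in 1 hr and 4 hr PDGF, and 52.5 and 70.9 in 1 hr and 4 hr FGF. Cells with LY had 59.0 and 43.7 FPKM in 1 hr and 4 hr PDGF, and 54.2 and 51.1 in 1 hr and 4 hr FGF. With PDGF and either inhibitor it was lower at 4 hr than at 1 hr (log2 ratios -0.38 with PD and -0.43 with LY), short of the 1.5-fold limit.

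Pdgfd, a ligand mainly of PDGFR-beta, was 28.7 FPKM in 4 hr PDGF and 26.5 in 4 hr FGF. PD gave 34.5 and 34.6 FPKM in 1 hr and 4 hr PDGF, and 30.8 and 32.9 in 1 hr and 4 hr FGF. LY gave 39.5 and 38.8 FPKM in 1 hr and 4 hr PDGF, and 37.6 and 31.4 in 1 hr and 4 hr FGF. Both conditions of ligand alone were below all 8 inhibitor conditions, by a gap of 1.07-fold, as were those of 9.25% of 12298 entries. The summed ligand FPKM ranged from 121 (4 hr PDGF + LY) to 165 (4 hr FGF + PD).

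Among the receptors, Pdgfra was 3.30 FPKM in 4 hr PDGF and 2.57 in 4 hr FGF, its lowest value. In the presence of PD it was 5.29 and 9.47 FPKM in 1 hr and 4 hr PDGF, and 4.38 and 3.05 in 1 hr and 4 hr FGF. In the presence of LY it was 7.59 and 5.27 FPKM in 1 hr and 4 hr PDGF, and 5.39 and 6.51 in 1 hr and 4 hr FGF. The highest value came from 4 hr PDGF + PD, and the lowest 3 were both conditions of ligand alone and 4 hr FGF + PD.

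Pdgfrb, which lies at chr18:61045127-61085067, was 74.5 FPKM in 4 hr PDGF and 83.2 in 4 hr FGF. With PD it was 58.5 and 46.6 FPKM in 1 hr and 4 hr PDGF, and 52.9 and 43.4 in 1 hr and 4 hr FGF. With LY it was 66.5 and 65.3 FPKM in 1 hr and 4 hr PDGF, and 58.2 and 112 in 1 hr and 4 hr FGF. The PD range (43.4 to 58.5) and the LY range (58.2 to 112) overlapped only at their ends, and 4 hr FGF + LY stood above every other condition.

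The FPKM of Pdgfrb exceeded that of Pdgfra 4.92-fold (4 hr PDGF + PD) to 32.4-fold (4 hr FGF), with a median of 12.2-fold. In the 4 hr PDGF condition the ratio was 22.6. Pdgfra thus made up 3.00% to 16.9% of the summed receptor FPKM. These are mRNA levels per transcript length and do not measure receptor protein.

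Pdgfrl was 14.6 FPKM in 4 hr PDGF and 11.6 in 4 hr FGF. With PD it was 26.0 and 29.9 FPKM in 1 hr and 4 hr PDGF, and 23.3 and 30.7 in 1 hr and 4 hr FGF. With LY it was 29.1 and 33.8 FPKM in 1 hr and 4 hr PDGF, and 31.9 and 28.9 in 1 hr and 4 hr FGF. Both conditions of ligand alone were below all 8 inhibitor conditions, by a gap of 1.59-fold. Of 12298 entries, 100 (0.813%) lay below in this way by at least 1.5-fold, and 87 lay above. The conditions of ligand alone had 3 samples and those with inhibitor 2. Whether they were grown or sequenced together is not given in the sources used here, so the inhibitors and a set of libraries cannot be told apart.

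The first set of comparisons asked how FGF differed from PDGF at the same time and with the same inhibitor. The ratios past 1.5-fold all came at 4 hr under inhibitors, where 18.5% to 19.4% of entries also passed that limit. Pdgfb was higher with FGF under both inhibitors, Pdgfra was lower with FGF under PD, and Pdgfrb was higher with FGF under LY. For the ligands alone at 4 hr, 0 of 7 genes reached 1.5-fold, beside 11.0% of 11598 entries. Pdgfb came closest, 6.64 FPKM with FGF and 4.50 with PDGF (log2 ratio 0.56). With PD at 1 hr, 0 of 7 reached the limit, beside 5.41% of 11715 entries, and all 7 ratios lay between -0.27 and -0.11 on the log2 scale. With LY at 1 hr, 0 of 7 reached it, beside 6.90% of 11640 entries.

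With PD at 4 hr, 2 of 7 genes reached 1.5-fold between the ligands, beside 19.4% of 11789 entries. Pdgfra was 3.05 FPKM with FGF and 9.47 with PDGF, 3.11-fold lower, and 1.23% of entries were lower by as much. Pdgfb was 5.98 FPKM with FGF and 2.89 with PDGF, 2.07-fold higher, and 1.79% of entries were higher by as much. With LY at 4 hr, 2 of 7 reached the limit, beside 18.5% of 11589 entries. Pdgfb was 3.91 FPKM with FGF and 1.17 with PDGF, 3.35-fold higher, and 1.46% of entries were higher by as much. Pdgfrb was 112 FPKM with FGF and 65.3 with PDGF, 1.71-fold higher, and 5.82% of entries were higher by as much. Over the 5 comparisons, 4 of 35 ratios (11.4%) reached 1.5-fold, beside 5.41% to 19.4% of entries.

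The second set compared each inhibitor with ligand alone at 4 hr. Pdgfrl was higher in all 4, Pdgfra was higher in 3, Pdgfb was lower in 3, and Pdgfrb was lower with PD under both ligands. For PDGF + PD, 4 of 7 genes reached 1.5-fold, beside 21.5% of 11879 entries. Pdgfra was 2.87-fold higher (9.47 against 3.30 FPKM) and Pdgfrl 2.04-fold higher (29.9 against 14.6 FPKM). Pdgfrb was lower (46.6 against 74.5 FPKM, log2 ratio -0.68), as was Pdgfb (2.89 against 4.50 FPKM, log2 ratio -0.64). For PDGF + LY, 3 of 7 reached it, beside 24.4% of 11738 entries. Pdgfb was 3.85-fold lower (1.17 against 4.50 FPKM), and 0.92% of entries were lower by as much. Pdgfrl was 2.31-fold and Pdgfra 1.60-fold higher.

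For FGF + PD, 2 of 7 genes reached 1.5-fold, beside 23.1% of 11642 entries. Pdgfrl was 2.65-fold higher (30.7 against 11.6 FPKM) and Pdgfrb 1.91-fold lower (43.4 against 83.2 FPKM). Pdgfra did not reach it (3.05 against 2.57 FPKM, log2 ratio 0.25). For FGF + LY, 3 of 7 reached it, beside 24.0% of 11612 entries. Pdgfra was 2.54-fold higher (6.51 against 2.57 FPKM), Pdgfrl 2.50-fold higher (28.9 against 11.6 FPKM) and Pdgfb 1.70-fold lower (3.91 against 6.64 FPKM). Over the 4 comparisons, 12 of 28 ratios (42.9%) reached 1.5-fold, beside 21.5% to 24.4% of entries. These 12 all rest on the conditions of ligand alone, 4 of them being Pdgfrl.

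The third set compared PD with LY under the same ligand and time, without any condition of ligand alone. Pdgfb was higher with PD in all 4, but at low levels. With PDGF at both times and with FGF at 1 hr, both of its values were below 5 FPKM. The share of all entries higher with PD in all 4 was not calculated. With PDGF at 1 hr, 1 of 7 genes reached 1.5-fold, beside 15.1% of 11714 entries: Pdgfb, at 3.36 FPKM with PD and 0.878 with LY, 3.83-fold higher. With FGF at 1 hr, 1 of 7 reached it, beside 19.8% of 11793 entries: Pdgfb, 2.43-fold higher with PD (3.10 against 1.28 FPKM). With PDGF at 4 hr, 2 of 7 reached it, beside 19.7% of 11816 entries. Pdgfb was 2.47-fold higher with PD (2.89 against 1.17 FPKM) and Pdgfra 1.80-fold higher (9.47 against 5.27 FPKM).

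With FGF at 4 hr, 3 of 7 genes reached 1.5-fold between the inhibitors, beside 24.2% of 11600 entries. Pdgfrb was 2.58-fold lower with PD (43.4 against 112 FPKM) and Pdgfra 2.14-fold lower (3.05 against 6.51 FPKM). Pdgfb was 1.53-fold higher with PD (5.98 against 3.91 FPKM). Pdgfra thus had opposite signs under the ligands at 4 hr. Over the 4 comparisons, 7 of 28 ratios (25.0%) reached 1.5-fold, beside 15.1% to 24.2% of entries.

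**Figure D3:**
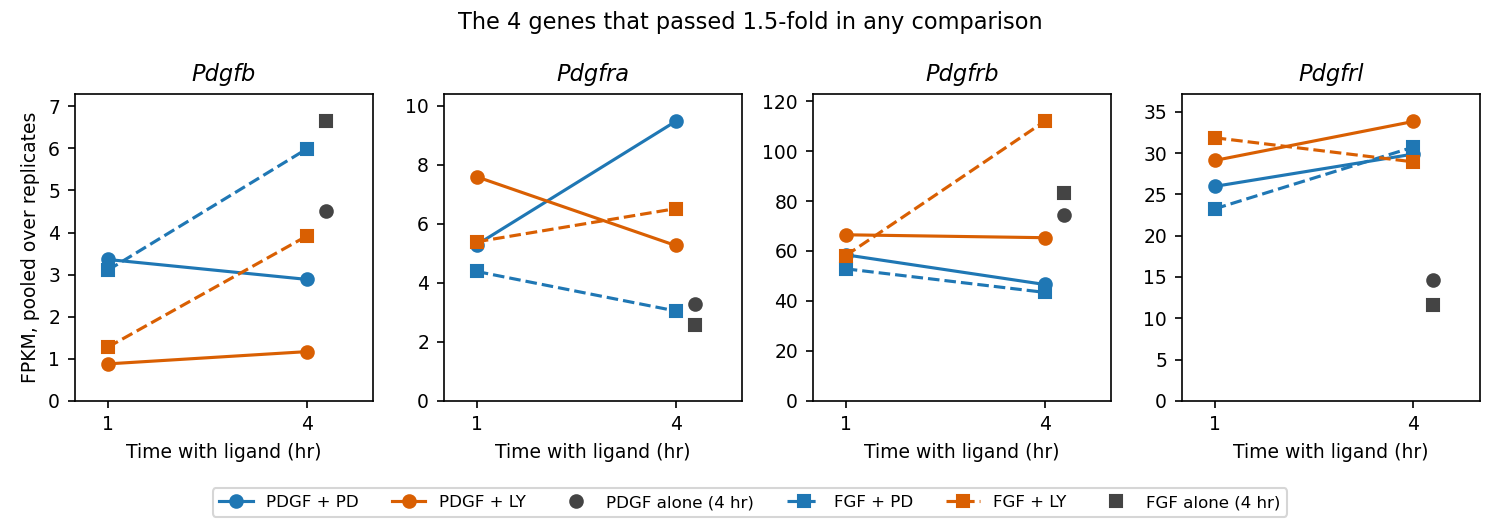
Pooled FPKM (linear axes from 0) of the 4 genes with a ratio of at least 1.5-fold, at 1 and 4 hr. Lines join the times of PDGF (circles, solid) and FGF (squares, dashed) with PD (blue) or LY (orange), and grey points, drawn to the right of 4 hr, are ligand alone at 4 hr. In Pdgfb both FGF lines go up, to 5.98 with PD and 3.91 with LY. In Pdgfra the PDGF + PD line goes up to 9.47.

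The fourth set compared 4 hr with 1 hr under inhibitors. Pdgfb was higher at 4 hr with FGF under both inhibitors. With PDGF and PD, 1 of 7 genes reached 1.5-fold, beside 11.9% of 11811 entries: Pdgfra, 1.79-fold higher at 4 hr (9.47 against 5.29 FPKM). With PDGF and LY, 0 of 7 reached it, beside 10.4% of 11661 entries, and Pdgfra was 5.27 FPKM at 4 hr against 7.59 at 1 hr. With FGF and PD, 1 of 7 reached it, beside 14.4% of 11729 entries: Pdgfb, 1.93-fold higher (5.98 against 3.10 FPKM). With FGF and LY, 2 of 7 reached it, beside 23.6% of 11677 entries. Pdgfb was 3.07-fold higher (3.91 against 1.28 FPKM), and Pdgfrb 1.92-fold higher (112 against 58.2 FPKM). Over the 4 comparisons, 4 of 28 ratios (14.3%) reached 1.5-fold, beside 10.4% to 23.6% of entries.

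Genes that process PDGF ligands were read next, as a list of 7: the convertase genes Furin, Pcsk5, Pcsk6 and Pcsk7 and the protease genes Plat, Plau and St14. Plat encodes tissue plasminogen activator, known to activate PDGF-C, and Plau encodes urokinase, known to activate PDGF-D. Over the 5 comparisons of FGF with PDGF, 6 of 35 ratios (17.1%) reached 1.5-fold, all higher with FGF and all of Plat or Plau, beside 5.41% to 19.4% of entries. Plau was 109.7 FPKM with FGF and PD at 4 hr and 24.9 with PDGF and PD, 4.40-fold higher. Plat was highest in 4 hr FGF + LY (105.9 FPKM), which was 5.22-fold above 4 hr FGF + PD (20.3 FPKM).

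Plau showed the other direction between the inhibitors in the same pair, at 109.7 FPKM with PD and 38.6 with LY. Among the convertases, Furin was 38.0 to 54.4 FPKM, Pcsk6 8.72 to 11.8 and Pcsk7 8.23 to 12.6. Pcsk5 was 4.05 FPKM in 1 hr PDGF + PD and 7.04 in 1 hr PDGF + LY, past the 1.5-fold limit. The list's median log2 ratios in the 5 ligand comparisons lay between -0.17 and 0.07. Against ligand alone, 2 of 28 ratios reached 1.5-fold upwards and 4 downwards (21.4% in all, beside 21.5% to 24.4% of entries). Between the inhibitors 9 of 28 did so (32.1%, beside 15.1% to 24.2%), and between the times 3 of 28 (10.7%, beside 10.4% to 23.6%).

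**Figure D4:**
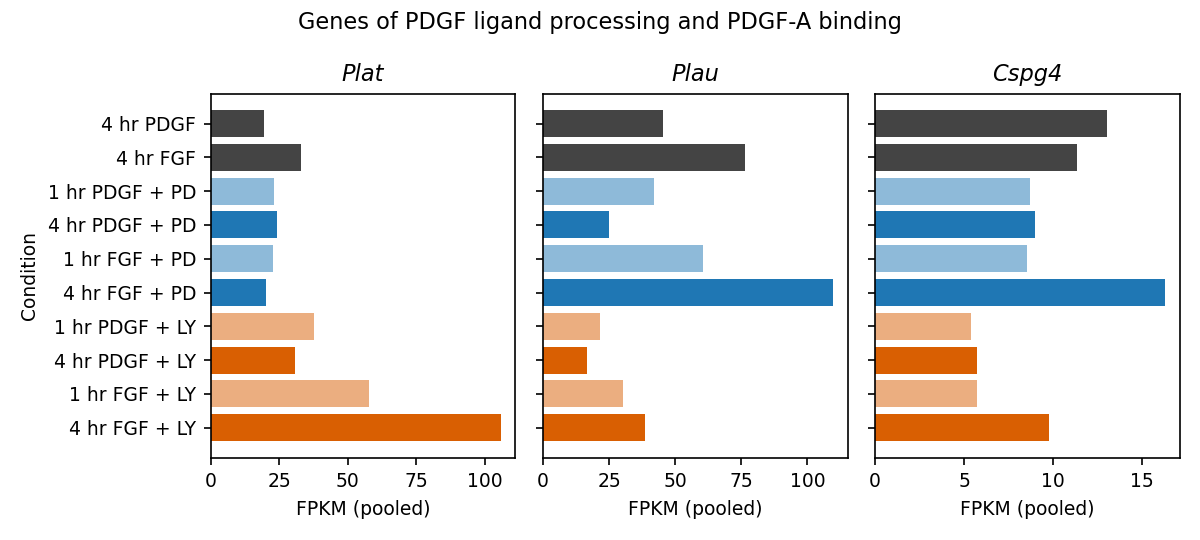
Pooled FPKM (linear axes from 0) of Plat, Plau and Cspg4 in the 10 conditions, with grey bars for ligand alone, blue for PD and orange for LY, paler at 1 hr. Plat is highest in 4 hr FGF + LY at 105.9 FPKM, Plau in 4 hr FGF + PD at 109.7 and Cspg4 in 4 hr FGF + PD at 16.3.

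The list of coreceptors and binding proteins had 7 of its 8 genes in the table. It included Cspg4 (NG2, a proteoglycan that binds PDGF-A), Lrp1 (an endocytic receptor that associates with PDGFR-beta), Sparc and Thbs1 (matrix proteins that bind PDGF), Efnb1 and Gas1. Cspg4 was 16.3 FPKM in 4 hr FGF + PD and 5.41 in 1 hr PDGF + LY, its extremes. Lrp1 was highest in 4 hr FGF + LY (139 FPKM against 82.5 with PD), the condition in which Pdgfrb was highest. Gas1, a membrane protein that modifies hedgehog and receptor kinase signals, was highest in 4 hr PDGF + PD (40.7 FPKM against 18.6 in 4 hr PDGF), the condition in which Pdgfra was highest. Thbs1 was listed at 0 in 4 hr PDGF and at 1382 to 2227 FPKM elsewhere, and its ratios to that condition are counted but not read. Over the 4 comparisons of PD with LY, 5 ratios of 28 were higher and 6 lower with PD (39.3%, beside 15.1% to 24.2% of entries). The other sets lay nearer to the entries' shares, with 7 of 35 ratios (20%, beside 5.41% to 19.4%) between the ligands, 7 of 28 (25.0%, beside 21.5% to 24.4%) against ligand alone and 5 of 28 (17.9%, beside 10.4% to 23.6%) between the times.

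Among 12 genes known for turnover or dephosphorylation of receptor kinases, 15 of 48 ratios against ligand alone reached 1.5-fold (3 higher and 12 lower, 31.3%, beside 21.5% to 24.4% of entries). Between the inhibitors 14 of 48 did so (29.2%, beside 15.1% to 24.2%), between the ligands 7 of 60 (11.7%, beside 5.41% to 19.4%) and between the times 10 of 48 (20.8%, beside 10.4% to 23.6%). In 4 hr FGF + LY the phosphatase genes Ptprj (9.07 FPKM) and Ptpn1 (25.7 FPKM), and Sh2b3 (28.7 FPKM), an adaptor that restrains kinase signals, were at their highest. Against 4 hr FGF + PD, Ptprj was 4.00-fold and Sh2b3 3.48-fold higher. Acp1, encoding a low molecular weight phosphatase, was 7.82 and 8.34 FPKM with ligand alone and 3.44 to 4.87 with inhibitors. Both conditions of ligand alone were above all inhibitor conditions in 11.7% of 12298 entries, in 87 entries by at least 1.5-fold. As for Pdgfrl, the inhibitors and a set of libraries cannot be told apart. Socs1, a suppressor of cytokine signals, was 2.55-fold lower in 4 hr PDGF + PD than in 4 hr PDGF.

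Of the 34 adaptors and effectors of the receptors, 16 of 136 ratios (11.8%) against ligand alone reached 1.5-fold, beside 21.5% to 24.4% of entries. In the other sets the list's share lay within that of the entries, at 12 of 170 (7.06%, beside 5.41% to 19.4%) between the ligands, 21 of 136 (15.4%, beside 15.1% to 24.2%) between the inhibitors and 16 of 136 (11.8%, beside 10.4% to 23.6%) between the times. Rasa1, a RAS GTPase activator that binds PDGFR-beta, was 38.6 FPKM in 4 hr FGF + LY and 14.5 in 4 hr FGF + PD. Pik3r3, a regulatory PI3K subunit, was 23.6 FPKM in 4 hr PDGF + PD and lowest in 4 hr FGF + LY, where it was 2.74-fold below 1 hr FGF + LY (13.7 FPKM). Akt1 was the list's most abundant gene, at 134 to 183 FPKM.

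Relatives of the family were read last. VEGF ligands and receptors, read as a list of 8, share the cystine-knot fold and receptor architecture of the PDGF system. Against ligand alone, 18 of 32 ratios (56.3%) reached 1.5-fold, 6 higher and 12 lower, beside 21.5% to 24.4% of entries. Many of the 18 were of Pgf, Kdr and Flt4, low genes at 0.671 to 6.04 FPKM. All 18 rest on the conditions of ligand alone. The shares were 24.3% between the ligands (beside 5.41% to 19.4%), 43.3% between the inhibitors (beside 15.1% to 24.2%) and 31.03% between the times (beside 10.4% to 23.6%). Vegfd was 5.46 FPKM in 4 hr FGF and 30.6 in 1 hr PDGF + LY. Pgf, encoding placental growth factor, was 6.04 FPKM in 4 hr PDGF + PD and between 0.89 and 3.58 elsewhere. Kdr, the main VEGF receptor of endothelium, was 0.770 to 0.880 FPKM with LY and 2.23 to 4.39 in all other conditions. Its values with LY were thus all below 1 FPKM. All PD values were above all LY values in 11.3% of 12298 entries. Of the other class III receptor kinases, Kit, Csf1r and Flt3 stayed at or below 0.272 FPKM. Csf1, the gene of a ligand of the Csf1r product, was 78.3 and 102.8 FPKM with ligand alone and 31.8 to 53.1 with inhibitors. Both conditions of ligand alone were above all inhibitor conditions in 11.7% of 12298 entries. As for Pdgfrl, the inhibitors and a set of libraries cannot be told apart.

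The pattern of each gene over the 10 conditions was set beside those of 6661 or 6662 genes, by Pearson's r of log2(FPKM + 0.1). These genes had 1 symbol, were not small RNAs, reached 5 FPKM in at least 1 condition and ranged at least 1.5-fold. Points share their pooled libraries, so these values are descriptions. The likest gene was Thbs3 for Pdgfra (r = 0.90), Rasa3 for Pdgfrb (0.96), Cspg4 for Pdgfa (0.95), Sfn for Pdgfb (0.98), Fer for Pdgfc (0.90), Tmem106b for Pdgfd (0.97) and Rpl9 for Pdgfrl (0.98). Next were Olfml3 and Adck5 for Pdgfra, Pear1 and Sh2b3 for Pdgfrb, Lypla2 and Prkar2a for Pdgfa, and Pinx1 and Fgd3 for Pdgfb. For Pdgfc they were Fkbp2 and Rragc, for Pdgfd Thra and Aspn, and for Pdgfrl Syap1 and Rpl35. Rpl9 and Rpl35 encode ribosomal proteins, whose near-identical copies in the genome make their FPKM uncertain. For several members many genes were about as close. An r of at least 0.9 was reached by 83 genes for Pdgfb, 52 for Pdgfrl, 42 for Pdgfd and 32 for Pdgfrb. The number was 13 for Pdgfa, 1 for Pdgfc and 0 for Pdgfra, where Thbs3 had 0.898. By Spearman's rho, Cspg4, Fer and Rpl9 again ranked 1 and Tmem106b 2, but Sfn ranked 20, Rasa3 27 and Thbs3 28.

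Among the 7 genes themselves, over the same 10 conditions, Pdgfa and Pdgfb had r = 0.92, Pdgfd and Pdgfrl 0.85 and Pdgfb and Pdgfd -0.88. Pdgfd and Pdgfrl were both lowest with ligand alone, where the inhibitors and a set of libraries cannot be told apart. The part of this split in their r was not tested. The receptors Pdgfra and Pdgfrb had r = -0.07. Pdgfra lay closest to Pdgfd (0.68) and Pdgfrl (0.67).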

How the data were processed

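RNA-seq was measured in 22 samples of 10 conditions, grouped by their labels. Per the submitters' notes, the authors used CASAVA, TopHat with the mm10 build and Cuffdiff, whose versions are not given in the sources used here. The deposited values are FPKM, 1 per gene and condition, pooled by the authors over replicates, in 23286 entries of which 22749 carry 1 symbol and 5085 are 0 in every condition. Another 3 columns, of conditions outside these samples, were not used. The study's methods state depth as a range over all samples. The table holds no counts per gene, so no interval was given.

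Ratios were taken with Python 3.11.15, pandas 2.3.3 and NumPy 2.4.6, among entries above 1 FPKM in either condition, and counted at 1.5-fold. The calculation was tested on simulated data. The named genes are the 7 members, up to 3 genes per list and kind of comparison with the largest change and at least 5 FPKM, the 3 likest genes of each member, and the highest marker of each cell type, and further list members were named after their values were seen. The members and lists were chosen with earlier results of these data known. The alternatives were pseudocounts of 0.1 and 1, a minimum of 5 FPKM or none, limits of 1.25-fold and 2-fold, rescaling by the median ratio, and summing rows. Sequences come from RefSeq (GRCm38.p6), and shared words and antisense genes from GENCODE M21. Protein sequences were not used here. Some genes of the lists are not reported here and were left out of the lists' counts.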

Additional observations from a re-analysis of the deposited data

Results flagged for a closer look

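Pdgfra is singled out because its difference between the inhibitors had opposite signs, both past 1.5-fold, under the ligands at 4 hr. It was the only such case in a search of all 7 genes over several contrasts. With PDGF, the log2 ratio of PD to LY was 0.85 (9.47 against 5.27 FPKM), and with FGF it was -1.1 (3.05 against 6.51 FPKM). Each value is a pooled FPKM over 2 samples, and the difference between the ligands was not tested. In these comparisons 19.7% (PDGF) and 24.2% (FGF) of entries reached 1.5-fold in either direction. The ratio with PDGF does not reach 2-fold, and the share of entries with opposite signs was not calculated.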

How the results depend on the processing

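No paired analysis was possible because the table gives 1 pooled value per condition, and for the same reason no replicate could be left out in turn. Of the 119 ratios, 27 reached 1.5-fold, beside 5.41% to 24.4% of entries in single comparisons, and 0 changed sign under any alternative run. The number past the limit moved as follows. At the lower of the limits it was 11 for FGF against PDGF (4 at 1.5-fold) and 16 for inhibitor against ligand alone (12). It was 11 for PD against LY (7) and 14 for 4 hr against 1 hr (4). At 2-fold the numbers were 3, 7, 5 and 1, in the same order. With a minimum of 5 FPKM they were 3, 10, 4 and 3. The ratios that this minimum removed between PD and LY were all of Pdgfb. The share of all entries was not calculated under these alternatives, so these numbers have no background beside them. Over single ratios, the lower limit added 25 and 2-fold removed 11. A pseudocount of 1 removed 3: Pdgfb in PDGF + PD against PDGF (log2 ratio -0.50), Pdgfra in PDGF + LY against PDGF (0.54) and Pdgfb in PD against LY with FGF at 4 hr (0.51). Rescaling by the median ratio (factors 0.979 to 1.00), a pseudocount of 0.1, no minimum and summed rows changed no call. Pdgfra and Pdgfb were below 10 FPKM in every condition, and without counts per gene their counting error was not calculated.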
